A study of Rattus norvegicus with 4 samples.

Results

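Cox4i1 (ENSRNOG00000017817), Sdha (ENSRNOG00000013331), Atp5b (ENSRNOG00000002840) and Cs (ENSRNOG00000023520) are 4 nuclear genes of mitochondrial respiration and the citrate cycle. They were taken by identifier as nuclear markers of mitochondrial content, 4 genes of the 26313 listed for each sample. The RNA came from the thoracic aorta (AO), a conduit artery, and from the small arteries of the mesenteric arcade (MA), which are resistance vessels, in 2 samples each. All samples were from adult male Sprague-Dawley rats, and the methods describe no treatment of the animals before euthanasia. AO1 and MA1 were dissected from the same animal, AO2 from another and MA2 from yet another. The superior mesenteric artery was left out of MA and the arcade was cleaned of fat. The methods do not state for AO in so many words that fat was removed. Both tissues were whole vessels that hold smooth muscle, endothelium and other cells, so that fewer cells of a type and less RNA per cell cannot be told apart. Because the files carry no gene symbols, the tissue labels were not checked against smooth muscle, endothelial or fat cell markers, which are not analysed here.

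Mitochondria burn acetyl units in the citrate cycle and pass the electrons along the respiratory chain, and the proton gradient that results drives ATP synthase. A few subunits are encoded in the mitochondrial genome, but most subunits of the chain and all enzymes of the cycle are nuclear genes. Cs is citrate synthase, the matrix enzyme that joins acetyl-CoA to oxaloacetate, and its activity is a common measure of mitochondrial content. Sdha is the flavoprotein subunit of succinate dehydrogenase, which works both in the cycle and as complex II of the chain. Cox4i1 is a nuclear subunit of cytochrome c oxidase (complex IV). Atp5b, named Atp5f1b in current RefSeq, is the catalytic beta subunit of ATP synthase (complex V). Nuclear genes of this kind are known targets of the transcription factors NRF1, GABPA and the estrogen-related receptors, with PPARGC1A as coactivator.

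The start regions of the 4 genes are shown as background, and their bearing on the differences between the arteries was not tested. The sequences are from RefSeq on the assembly GRCr8, where all 4 symbols were matched, and each runs from base -220 to base 30 around the annotated start site on the plus strand. They lie at chr19:65630163-65630412 for Cox4i1, chr1:30764333-30764582 for Sdha, chr7:1099838-1100087 for Atp5b and chr7:1348169-1348418 for Cs. Capitals mark the words searched on both strands, which were GCATGCGC (core of the NRF1 site), GCGCANGCG (a looser NRF1 word, in which N is any base), CCGGAAG (core of the ETS site bound by GABPA), AAGGTCA (bound by the estrogen-related receptors) and GGGCGG (the GC box of Sp1). The looser NRF1 word was added after the sequences had been read, and it overlaps the NRF1 core where both are present.
Cox4i1: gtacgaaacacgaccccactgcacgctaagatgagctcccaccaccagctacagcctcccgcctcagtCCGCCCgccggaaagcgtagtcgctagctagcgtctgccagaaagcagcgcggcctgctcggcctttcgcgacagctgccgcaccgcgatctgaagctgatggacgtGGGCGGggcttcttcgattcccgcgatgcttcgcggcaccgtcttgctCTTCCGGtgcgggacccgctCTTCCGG
Sdha: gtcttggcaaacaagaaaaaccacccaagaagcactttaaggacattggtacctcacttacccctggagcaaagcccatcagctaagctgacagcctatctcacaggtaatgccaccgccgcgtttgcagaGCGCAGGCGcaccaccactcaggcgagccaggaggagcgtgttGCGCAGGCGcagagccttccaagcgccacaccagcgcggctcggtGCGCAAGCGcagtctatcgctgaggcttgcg
Atp5b: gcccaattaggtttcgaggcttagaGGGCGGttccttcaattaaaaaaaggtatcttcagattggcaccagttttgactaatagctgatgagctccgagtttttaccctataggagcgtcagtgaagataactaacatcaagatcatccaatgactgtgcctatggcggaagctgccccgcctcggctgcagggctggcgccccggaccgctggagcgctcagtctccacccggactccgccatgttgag
Cs: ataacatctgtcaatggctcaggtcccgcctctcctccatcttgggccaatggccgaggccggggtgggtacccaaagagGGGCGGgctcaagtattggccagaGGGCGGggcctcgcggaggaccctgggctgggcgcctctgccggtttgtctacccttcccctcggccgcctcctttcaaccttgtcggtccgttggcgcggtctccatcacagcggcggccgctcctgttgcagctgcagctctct

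No word was common to all 4 genes. Cox4i1 held the ETS core on the minus strand at bases 4 to 10 and again at bases 24 to 30, a word found in 8.75% of all 33469 windows of 300 bases (250 before and 50 after the start). Sdha held the looser NRF1 word 3 times, from bases -89, -46 and -1, whereas 5.80% of all windows held it at all. The GC box was present in Cox4i1, Atp5b and Cs, but 33.1% of all windows had it. Neither the NRF1 core (2.47% of windows) nor the receptor word (4.61%) was found in the 4 windows, which says only that these letters are absent there. Atp5b and Cs lie on the same chromosome, and the other two genes on chromosomes of their own. The GC share was 66.0% for Cox4i1, 65.0% for Cs, 60.3% for Sdha and 53.3% for Atp5b, against a median of 51.7% over all windows.

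Levels are given in RPKM, which are reads divided by gene length and by library size. Since 1 read is worth a fixed step of RPKM for a given gene in a given sample, whole reads, library sizes and gene lengths could be solved from the values. Reads on genes came to between 72523850 and 82448926 per sample. The length solved for Cox4i1 was 6241 bp and that for Sdha 24971 bp, each equal to the whole span of the gene, introns included, in RefSeq. The solved length of Atp5b was 6244 bp and that of Cs 26467 bp, differing by -160 bp and 231 bp from their RefSeq spans. These lengths bear on the identity of the rows, as the files do not pair identifiers with symbols. They also mean that the RPKM of Sdha and Cs are set low by long introns, so the order of the 4 mRNAs below is per gene span and not per mRNA. The study's methods name mRNA length as the divisor, which differs from the lengths solved here, and levels per mRNA length are on another scale.

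All 4 mRNAs were enriched in AO over MA, by 3.61 to 4.09-fold after scaling and with 0.5 RPKM added to each value. Cs, Sdha and Cox4i1 lay close to 4-fold and Atp5b slightly below. In each of them both AO samples were above both MA samples, before and after scaling. With 2 samples against 2, the smallest two-sided p of an exact permutation test is 0.333. How many of all genes tested separate in this way was not counted. Fat cells, of which the brown kind is rich in mitochondria, may stay on a dissected artery, and their part in these differences was not tested. The 4 genes are described in turn, from the cycle to the chain and ATP synthase. Each sample was scaled by the median-of-ratios method, in which its RPKM are divided by a factor set by the typical gene (0.789 and 0.897 for the AO samples, 1.22 and 1.16 for the MA samples). Differences are on the scale log2(scaled RPKM + 0.5) and were tested with limma across all 7203 genes that reached 1 RPKM in 2 or more samples, with Benjamini-Hochberg adjustment. Because RPKM are per gene span here, a longer gene needs more reads to reach 1 RPKM. A gene was called at an adjusted p of at most 0.05 and a difference of more than 2-fold.

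As deposited, Cs had 12.5 and 15.2 RPKM in AO1 and AO2, and 4.89 and 4.54 RPKM in MA1 and MA2. After scaling these were 15.8 and 16.9 in AO and 4.01 and 3.92 in MA, or 16.4 ± 0.781 (SD, n = 2) in AO and 3.96 ± 0.0644 (SD, n = 2) in MA. The samples of a tissue nearly coincided, and the lower AO sample was 3.95 times the higher MA sample. On the log2 scale MA minus AO was -1.92 (adjusted p = 0.0143 from limma), and its standard error of 0.16 was the smallest of the 4.

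Sdha had 17.6 and 20.4 RPKM in AO1 and AO2, with 7.34 and 5.70 RPKM in MA1 and MA2. The scaled values were 22.3 and 22.7 in AO and 6.01 and 4.92 in MA, that is 22.5 ± 0.297 (SD, n = 2) against 5.47 ± 0.773 (SD, n = 2). Here the MA samples were the ones further apart, by 1.2-fold, while AO1 and AO2 were 1.02-fold apart. MA minus AO was -1.95 (standard error 0.18, adjusted p = 0.0181 from limma).

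Cox4i1 stood at 123.7 and 92.7 RPKM in AO1 and AO2 and at 37.8 and 35.3 RPKM in MA1 and MA2. Scaling gave 156.8 and 103.4 in AO and 31.0 and 30.5 in MA, or 130.1 ± 37.8 (SD, n = 2) and 30.7 ± 0.302 (SD, n = 2). It was the member whose AO samples differed most. AO1 was 1.51-fold above AO2, a gap that 13.2% of the genes tested equalled or passed, and the MA samples were 1.01-fold apart. MA minus AO was -2.03 (standard error 0.27, adjusted p = 0.0261 from limma).

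Atp5b, the most abundant, reached 326.7 and 385.3 RPKM in AO1 and AO2 and 128.8 and 149.1 RPKM in MA1 and MA2. The scaled values were 414.0 and 429.6 in AO and 105.5 and 128.7 in MA, or 421.8 ± 11.0 (SD, n = 2) against 117.1 ± 16.4 (SD, n = 2). MA2 was above MA1 by 1.22-fold, the reverse of Sdha. MA minus AO was -1.85 (standard error 0.21, adjusted p = 0.0213 from limma).

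**Figure D1:**
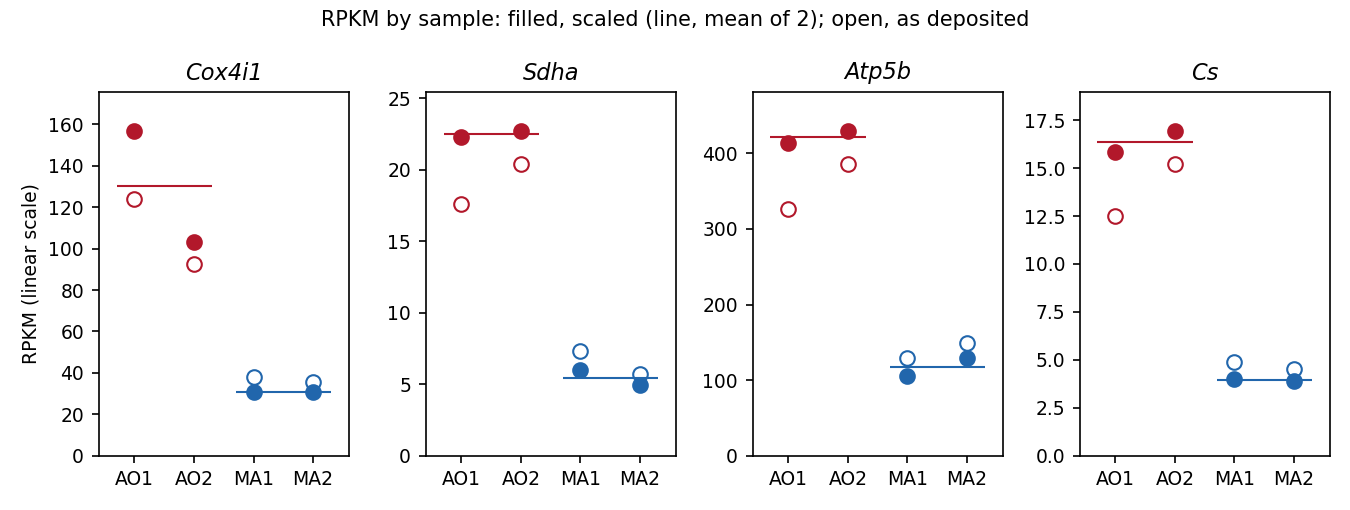
RPKM (linear axis from 0) of the 4 genes in each of the 4 samples, red for AO and blue for MA. Filled points are scaled values with a line at the mean of the 2 samples of a tissue, open points are values as deposited. In each panel both AO points lie above both MA points, and the AO points of Cox4i1, at 156.8 and 103.4 scaled RPKM, are the furthest apart.

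The order per gene span was Atp5b, Cox4i1, Sdha, Cs in each of the 4 samples, and neighbours in this order did not overlap in either tissue. In mean scaled level Atp5b stood above 97.7% of the genes tested, Cox4i1 above 94.9%, Sdha above 83.4% and Cs above 78.7%. Counting error was small for all 4. The lowest number of reads was 10682, for Cs in MA2, and the highest 210150, for Atp5b in AO2. The SD from counting alone was at most 0.968% of a value, far below the gaps between the tissues. Intervals from counting do not include variation between rats or dissections. The 4 genes together took 0.392% (AO1) and 0.429% (AO2) of the reads on genes in aorta, but 0.155% (MA1) and 0.171% (MA2) in the mesenteric arteries.

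All 4 genes passed the limits as higher in AO, against 6.77% of the 7203 genes tested (488 genes). The 4 were chosen with earlier results of these data known, so the comparison with this share is no independent support. Among the 1534 genes with a mean level at or above that of Cs, 11.7% were called higher in AO. Both shares are over genes picked by RPKM per gene span, which leaves out some long genes. With a filter of 0.1 RPKM, 329 of 13811 genes were called higher in AO, the 4 among them. From the lowest MA minus AO difference upwards, Cox4i1 held rank 185, Sdha 211, Cs 223 and Atp5b 240, so that 184 genes (2.55%) were more strongly enriched in AO than any of the 4. Between Cox4i1 and Atp5b in this order lay a narrow band of 56 genes, the 4 included, of which 49 were called. The median difference of the 4 was -1.94, beside -0.05 over all genes tested.

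**Figure D2:**
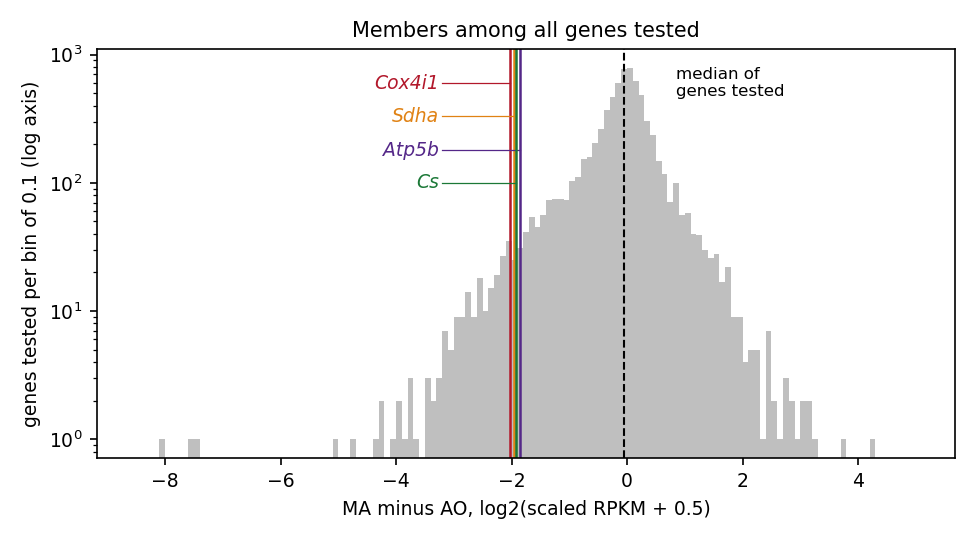
Histogram of MA minus AO on the log2(scaled RPKM + 0.5) scale for the 7203 genes tested (bins of 0.1, log axis for the number of genes), with a coloured line for each of the 4 genes and a dashed line for the median of all. The 4 lines stand together between -2.03 and -1.85 in the left flank, while the median is at -0.05. Of the genes tested, 2.55% lie further left than Cox4i1 and 3.32% further left than Atp5b.

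The scaling set the size of the fold but not its direction. As deposited, the median of all genes tested was 0.37 on the log2 scale in favour of MA, and scaling moved it by -0.42. With RPKM as deposited the 4 differences ran from -1.54 for Cox4i1 to -1.35 for Atp5b. All 4 were still called, among 260 of 7203 genes called higher in AO. Relative to the median of all genes, the median of the 4 was -1.89 after scaling and -1.84 as deposited. The folds of mean RPKM, with no pseudocount, were 4.23 for Cox4i1, 4.13 for Cs, 4.12 for Sdha and 3.6 for Atp5b after scaling, and 2.96, 2.94, 2.91 and 2.56 as deposited.

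The 4 differences were close to each other. They spanned 0.18 on the log2 scale, with an SD of 0.08 between genes. The standard errors of the single genes were 0.16 to 0.27. All 4 differences share the same samples and scaling, so this SD cannot be judged against those standard errors. Ratios of RPKM between the genes within a sample, which no scaling of the sample can alter, were compared for the 6 pairs. The ratio of Sdha to Cs was 1.41 and 1.34 in AO1 and AO2 and 1.5 and 1.26 in MA1 and MA2, and its log2 mean moved by -0.002 from AO to MA, with an SD within a tissue of 0.13. The ratio of Cox4i1 to Cs was 9.90 in AO1 and 6.10 in AO2, with MA1 at 7.72 and MA2 at 7.79 in between. The tissues overlapped in 5 of the 6 pairs. The exception was Atp5b to Cs, at 26.2 and 25.4 in AO1 and AO2 and 26.3 and 32.9 in MA1 and MA2, where MA1 was hardly above AO1. The shift of this pair from AO to MA, 0.19, was larger than its SD within a tissue of 0.16. The other shifts were smaller than theirs, with -0.19 against 0.29 for Sdha to Atp5b, -0.002 against 0.34 for Cox4i1 to Sdha and -0.004 against 0.35 for Cox4i1 to Cs. The largest shift between tissues, -0.20 for Cox4i1 to Atp5b (1.15-fold), was below its SD within a tissue of 0.36, but it hung on single samples, being 0.13 without AO1 and -0.52 without AO2. The ratios are given as values and were not tested, and 2 samples per tissue do not show that they are equal.

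Within the rat that gave both arteries, AO1 was above MA1 by 5.0-fold for Cox4i1, 3.91-fold for Atp5b, 3.62-fold for Cs and 3.50-fold for Sdha on the scale with the pseudocount. Between AO2 and MA2, from different rats, the same folds were 3.35 for Cox4i1, 3.33 for Atp5b, 3.95 for Cs and 4.28 for Sdha. Both comparisons had AO higher for each gene, and the gene with the largest fold was Cox4i1 in the former and Sdha in the latter.

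In profile over the 4 samples (log2 values less the gene's own mean, compared by Euclidean distance), Sdha and Cs were the closest pair, 0.177 apart. Even so, 5 of the genes tested were closer to Sdha than that, and 14 were closer to Cs. For Atp5b the closest of the others was Cs at 0.235, with 17 of the genes tested closer. For Cox4i1 it was Sdha at 0.481, with 116 of the genes tested closer to Cox4i1 than that. The gene most like the mean profile of the 4 was ENSRNOG00000032997, at a distance of 0.0638, with 2320 and 2545 RPKM in AO1 and AO2 and 948.8 and 853.1 RPKM in MA1 and MA2. Its MA minus AO difference was -1.93. Next came ENSRNOG00000033130 at 0.0936, with 1.2 and 1.36 RPKM in AO1 and AO2, 0.0143 in MA1 and 0 in MA2. The likeness of this second gene hangs on the pseudocount, since its RPKM all but vanished in MA while the 4 genes stayed well above 0 there. The files pair neither identifier with a symbol.

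**Figure D3:**
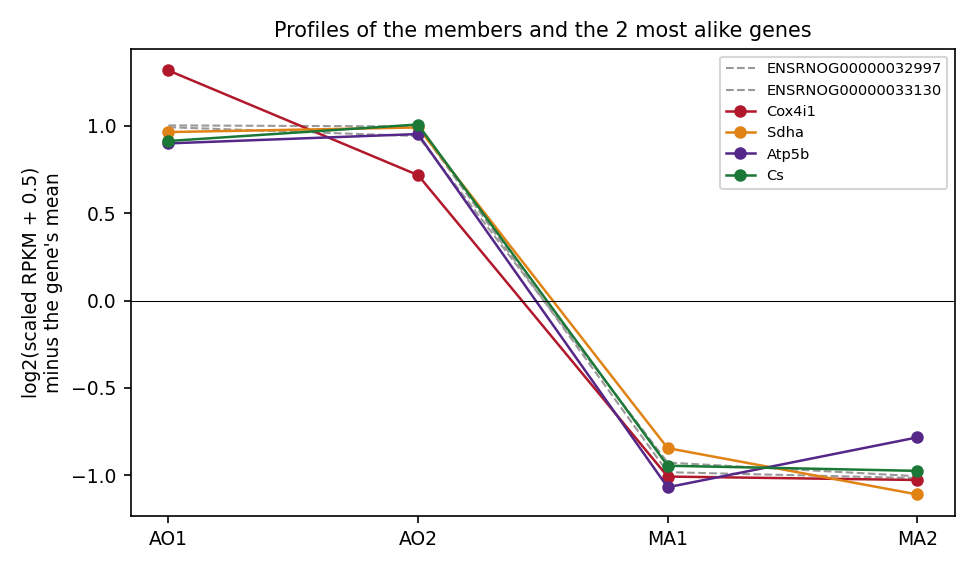
Log2(scaled RPKM + 0.5) less the gene's mean (vertical axis) in AO1, AO2, MA1 and MA2 for the 4 genes (solid) and the 2 identifiers with the closest profile (dashed grey). All lines lie above 0 in AO and below 0 in MA, which for the grey ones follows from how they were picked. Of the 4 genes Cox4i1 departs most, with 1.32 in AO1 and 0.72 in AO2.

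The calls rested on having both samples of each tissue. Leaving out AO1, AO2 or MA2 left 0 of the 4 genes called, and leaving out MA1 left 2, Sdha and Cs. Without AO1 the adjusted p from limma was 0.0992 to 0.145, and without MA1 it was 0.0493 to 0.0727. The lone sample is then assumed to vary like the pair of the other tissue, and over all genes 0, 20, 135 and 0 were called higher in AO without AO1, AO2, MA1 and MA2. The folds stayed between 3.28 for Atp5b without MA1 and 5.06 for Cox4i1 without AO2. With no filter on low RPKM, 0 of 20747 genes were called by limma, with 3434 of them at p of 0.05 or less before adjustment. The 4 genes had adjusted p of 0.0793 (Cs), 0.0886 (Sdha), 0.0992 (Atp5b) and 0.119 (Cox4i1). Limma-voom on the solved reads called all 4, with 547 genes called higher in AO, and gave -2.06 for Cox4i1, -2.05 for Sdha, -2.05 for Cs and -1.86 for Atp5b.

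**Figure D4:**
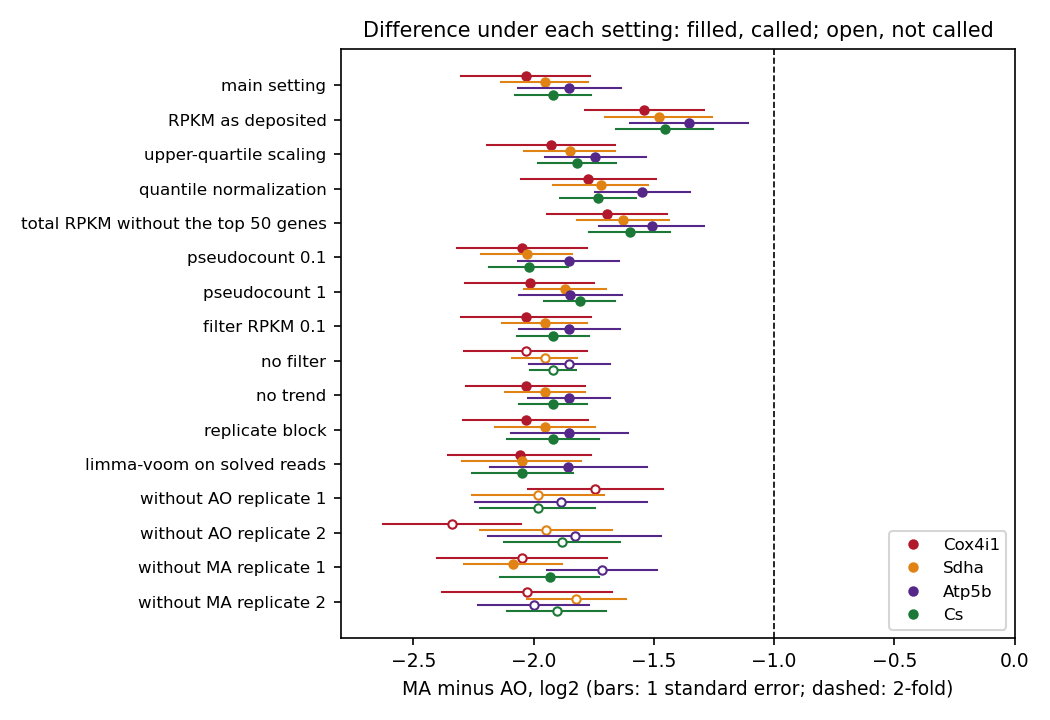
MA minus AO on the log2 scale for the 4 genes under the main setting and 15 others (rows), with bars of 1 standard error and a dashed line at 2-fold. Filled points were called and open points not. All points lie to the left of the dashed line, and the open ones are in the settings with no filter or with a sample left out.

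RefSeq lists entries named as copies of these genes, Cox4i1-ps1, Atp5f1b-ps1, Atp5f1b-ps2 and Cs-ps1. Reads with up to 2 alignments were kept in the alignment step, and the methods do not state how such reads were then counted. Reads may have been shared with such copies or left out, and their part in the values was not tested. The other subunits of the chain and enzymes of the cycle, and markers of brown or white fat cells, are not analysed here for want of symbols.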

How the data were processed

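Libraries of 2 AO and 2 MA samples were sequenced as paired ends on 1 lane. The authors aligned reads to the Ensembl rat genome Rnor5.72 with TopHat (version not given in the sources used here), discarded reads with more than 2 alignments and deposited RPKM for 26313 identifiers. Their methods name mRNA length and library size as the divisors, but the lengths solved from the RPKM of Cox4i1 and Sdha equal whole gene spans. The authors' test, DESeq on counts, was not repeated.

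Reads, lengths and library sizes were solved from the steps of RPKM (numpy 2.4.6 and numba 0.67.0, Python 3.11.15). All 20747 genes above 0 came out as whole reads, at most 0.00506 from a whole number, a closeness that the acceptance limit builds in. For the 4 genes it was at most 1.09e-04. Where the reads of a gene share a divisor, the smallest solution was taken.

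RPKM were scaled by median-of-ratios factors over genes above 0 in every sample and fitted with limma 3.58.1 in R 4.3.3 (lmFit, eBayes with a trend, pseudocount 0.5, no block). Calls also needed MA1 and MA2 to lie both above or both below the mean of AO. The p-values set each difference against the spread between samples of a tissue, which eBayes moderates towards a trend over all genes tested. Both scripts were tested on simulated data. Groups and replicate numbers are from the sample titles. Alternatives covered scaling, pseudocount, filter, trend, block, FDR, fold limit, limma-voom and leaving out each sample. The genes, lists and alternatives were chosen with earlier results of these data known. Named were the 4 genes and the 2 identifiers closest to their mean profile. Lists of further respiratory genes and of cell type markers were not used, since the reference pairs no Ensembl identifier with a symbol.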

Additional observations from a re-analysis of the deposited data

How the results depend on the processing

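The 4 genes were followed under 15 alternatives, and each kept AO above MA in all of them. With all samples, 10 of 11 alternatives called each gene, and these 10 called 260 to 547 genes higher in AO. They tested 7203 genes, or 13811 with a filter of 0.1 RPKM. The exception was no filter, where the differences were the same (-2.03 for Cox4i1, -1.95 for Sdha, -1.85 for Atp5b, -1.92 for Cs) but 0 were called, 0 genes in either tissue being called. Leaving out a sample gave -2.34 to -1.74 for Cox4i1, -2.09 to -1.82 for Sdha, -2.0 to -1.72 for Atp5b and -1.98 to -1.88 for Cs, with 0 to 2 of the 4 called, 0 to 135 genes called higher in AO and 0 to 64 higher in MA. With an FDR of 0.1 or no fold limit all 4 were called, among 632 and 551 of 7203 genes called higher in AO.

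Genes called higher in AO, 488, became 260 with RPKM as deposited and 310 with totals that leave out the top 50 genes. Genes called higher in MA, 67, became 170 and 107 under these, 43 with a pseudocount of 1, 39 with a filter of 0.1 RPKM and 134 with an FDR of 0.1. The cause was not tested beyond the construction of each setting. The log2 shift of Cox4i1 to Atp5b between tissues was -0.20 with an SD of 0.36, and leaving out a sample gave -0.52 to 0.13, so its sign is not settled.

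With a replicate block in the fit, 107 genes were called higher in MA and 456 in AO, and the 4 genes had adjusted p of 0.03 to 0.0391 from limma. The numbers do not pair the samples, since only AO1 and MA1 share a rat, and over genes the gap between the AO samples correlated with that between the MA samples at 0.018. There were 2 samples a tissue. For these 4 genes the SD from counting alone was at most 0.968% of a value, and the effect of depth was not tested.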
